A study of Mus musculus with 85 samples.

Results

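The genes described here encode the proteins of the cytosolic ribosome, in mouse embryos between fertilisation and the blastocyst. They were chosen by symbol alone, as Rpl or Rps followed by a number, with an optional A, X or L and an optional last digit, or as Rpsa, Rplp0, Rplp1 or Rplp2. Symbols that mark a processed copy with the ending -ps were not taken, and a level above 1 CPM (read counts scaled to 1 M per library) in at least 3 libraries was required. Of 37394 genes in the table, 89 matched and 89 passed. They comprised 77 core ribosomal proteins (31 of the small and 46 of the large subunit), 6 paralogs and 6 genes that the annotation lists as processed pseudogenes. The paralogs were Rps27l, Rpl22l1, Rpl39l, Rpl10l, Rpl3l and Rpl7l1, and the annotated pseudogenes were Rps4l, Rps12l1, Rpl32l, Rpl6l, Rps3a2 and Rps3a3.

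The study followed wild-type B6C3F1/J embryos by RNA sequencing and asked how gene expression depends on age and on the pyruvate or lactate in the culture medium. Embryos without pyruvate were collected as 2-cell embryos at 42 h (n = 4), 48 h (n = 5), 52 h (n = 4) and 55 h (n = 4) after injection of chorionic gonadotropin, the hormone that triggers ovulation. They were also collected as morulae at 78 h (n = 5) and as blastocysts at 114 h (n = 5). Embryos without lactate were collected as morulae (n = 5) and blastocysts (n = 4), and morulae without pyruvate were also cultured with the MYC inhibitor KY-PYR-9 at 20 nM (n = 4). Standard KSOM medium held L-lactate at 5 mM and glucose and pyruvate at 0.2 mM each, and each altered medium lacked only the named substrate. Embryos in standard medium were the early (34 h, n = 3), mid (42 h, n = 4), late (48 h, n = 3) and very late (52 h, n = 3) 2-cell embryo. Older standard groups were the early (55 h, n = 4) and late (62 h, n = 4) 4-cell, the early (66 h, n = 3) and late (74 h, n = 2) 8-cell, the morula (78 h, n = 6), the early 16-cell (80 h, n = 5), the early 32-cell (90 h, n = 4) and the blastocyst (114 h, n = 4). These 21 groups held 85 libraries. The labels do not say that libraries of a group came from separate cultures, and a p-value given here covers the spread among libraries only.

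A ribosome is assembled in the nucleolus from ribosomal RNA and 1 copy of nearly every ribosomal protein, and the small subunit decodes mRNA while the large subunit forms peptide bonds. Most ribosomal protein mRNAs begin with a C followed by a run of pyrimidines, the terminal oligopyrimidine (TOP) motif, through which the kinase mTORC1 controls their translation. The mouse egg stores ribosomes, and transcription from the embryonic genome begins in the 1-cell embryo and broadens in the 2-cell embryo, where maternal mRNA is degraded. The transcription factor MYC is known to raise the transcription of ribosomal protein and ribosome assembly genes.

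Annotated start sites of some members to which the results return are shown with their surrounding bases, since the TOP motif lies there. Only starts that hold the run of pyrimidines defined next were picked. The starts of Rplp0, Rps3, Rpl41, Rpl4, Rpl5, Rpl11, Rpl22, Rpl39 and Rpsa held no such run, nor did a second start of Rps27l. Each window holds the 15 bases before the start and the 15 from it on (RefSeq, GRCm38.p6), read 5′ to 3′ on the gene's strand, and capitals mark a run of at least 5 pyrimidines that begins with C within 3 bases of the start.
Rplp2 (chr7:141447636-141447665, plus strand): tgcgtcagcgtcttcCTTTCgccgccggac
Rps6 (chr4:86857353-86857382, minus strand): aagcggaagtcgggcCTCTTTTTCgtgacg
Rps27 (chr3:90213634-90213663, minus strand): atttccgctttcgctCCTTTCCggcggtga
Rps27l (chr9:66946071-66946100, plus strand): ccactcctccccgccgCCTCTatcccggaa
Rpl22l1 (chr3:28805493-28805522, plus strand): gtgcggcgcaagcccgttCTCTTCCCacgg
Rpl15 (chr14:18270972-18271001, minus strand): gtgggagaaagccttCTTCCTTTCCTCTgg
Rps10 (chr17:27635230-27635259, minus strand): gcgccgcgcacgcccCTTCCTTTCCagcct
Rpl38 (chr11:114668565-114668594, plus strand): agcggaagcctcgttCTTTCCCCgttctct
Of the 77 core members, 57 had a promoter window in the RefSeq table, and 22 of them (38.6%) held such a run, against 11.6% of 27025 promoters of all genes. In windows of 250 bases before to 50 after the start, read on both strands, the motif CCGGAA occurred in 29 of 57 core members (50.9%) and in 15.2% of all promoters. GGGCGG occurred in 34 (59.65%) against 35.9%, and AAGATGGC in 4 (7.02%) against 2.88%. The motif CACGTG, to which MYC can bind, occurred in 5 (8.77%) against 7.24%, and TATAAA in 5 (8.77%) against 14.2%. These are matches of letters in the windows and do not show binding.

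Libraries held between 10.2 M and 42.4 M reads (median 19.6 M, inferred from the step between low values), and between 11333 and 17417 genes above 1 CPM. Smart-seq2, the method used, primes reverse transcription on the poly(A) tail, so the values describe polyadenylated RNA, and a smaller RNA content per cell cannot be told apart from fewer cells. The stage labels were checked with marker genes. All 7 maternal oocyte markers and all 6 markers of the 2-cell embryo had group means above 1 CPM in every 2-cell group. This limit does not set 2-cell embryos apart. All 7 maternal markers also passed it in early and late 4-cell and late 8-cell embryos and in morulae without lactate. All 6 markers of the 2-cell embryo passed it in early 4-cell embryos and in morulae without pyruvate. Summed maternal markers were 26440 to 33250 CPM in early 2-cell and 248.5 to 331 CPM in early 4-cell libraries. Summed trophectoderm markers were 7563 to 8462 CPM in blastocysts without pyruvate, 8263 to 10240 CPM without lactate and 12900 to 17670 CPM in standard blastocysts. At most 2 of 8 cumulus cell markers and 1 of 4 sperm markers had a group mean above 1 CPM in any group. Of 3 blood cell markers, 2 had a mean above 1 CPM in many groups. They summed to 53.4 to 72.6 CPM in very late 2-cell libraries and to 58.8 to 88.3 CPM without pyruvate at 55 h, and the source of this RNA was not tested.

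Ribosomal protein genes have many processed copies in the genome, and 267 entries of the table carried a member's name with -ps. How reads that match both were assigned is not given in the sources used here, so a member and its copies may share reads. Of the 77 core members, 59 had such an entry, and for 26 the copies together held more CPM than the member, whereas for 38, those with no such entry included, they held under 10% of it. Over the 85 libraries, the mean level was 20.3 CPM for Rpl10 and 763 CPM for its copies, and 219 CPM for Rps6 and 884 CPM for its copies. For Rps3 the mean was 776 CPM with no -ps entry, and for Rplp0 it was 1511 CPM and 3.71 CPM for its copies. Levels and ranks of single members are therefore uncertain where the copies are high, and the 38 members with low copies are given beside the main counts. Only entries named -ps count as copies here. Annotated pseudogenes among the members were neither counted as copies nor added to a member. The 38 thus include Rps3a1 (mean 217 CPM, beside 327 CPM for Rps3a2 and 224 CPM for Rps3a3), Rps4x (322 CPM, beside 199 CPM for Rps4l) and Rpl6 (186 CPM, beside 47.6 CPM for Rpl6l).

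The ribosomal protein genes took up a growing part of the polyadenylated RNA from 34 h on, and embryos without pyruvate held less of it at each 2-cell age. In standard medium the members together held 0.0643% ± 0.0081 of all CPM in the early 2-cell embryo (mean and SD over libraries), 0.313% ± 0.0324 in the mid, 0.78% ± 0.0783 in the late and 1.07% ± 0.0926 in the very late 2-cell embryo. The share was 1.32% ± 0.276 in the early 4-cell, 1.96% ± 0.263 in the late 4-cell, 2.17% ± 0.183 in the early 8-cell, 2.26% ± 0.165 in the late 8-cell embryo and 2.24% ± 0.405 in the morula. It reached 3.56% ± 0.0564 at the early 16-cell and 3.66% ± 0.163 at the early 32-cell stage, and was 2.84% ± 0.576 in the blastocyst. Among the first 4 ages, no library overlapped with a library of another age in this share. Very late 2-cell libraries (0.967% to 1.14%) and early 4-cell libraries (0.994% to 1.64%) did overlap. The paralog Rps27l, at a mean of 310 CPM, made up much of the share in the early 2-cell embryo. The 77 core members alone held 0.03115% ± 0.00201 there and 0.2324% ± 0.0276 in the mid 2-cell embryo.

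**Figure D1:**
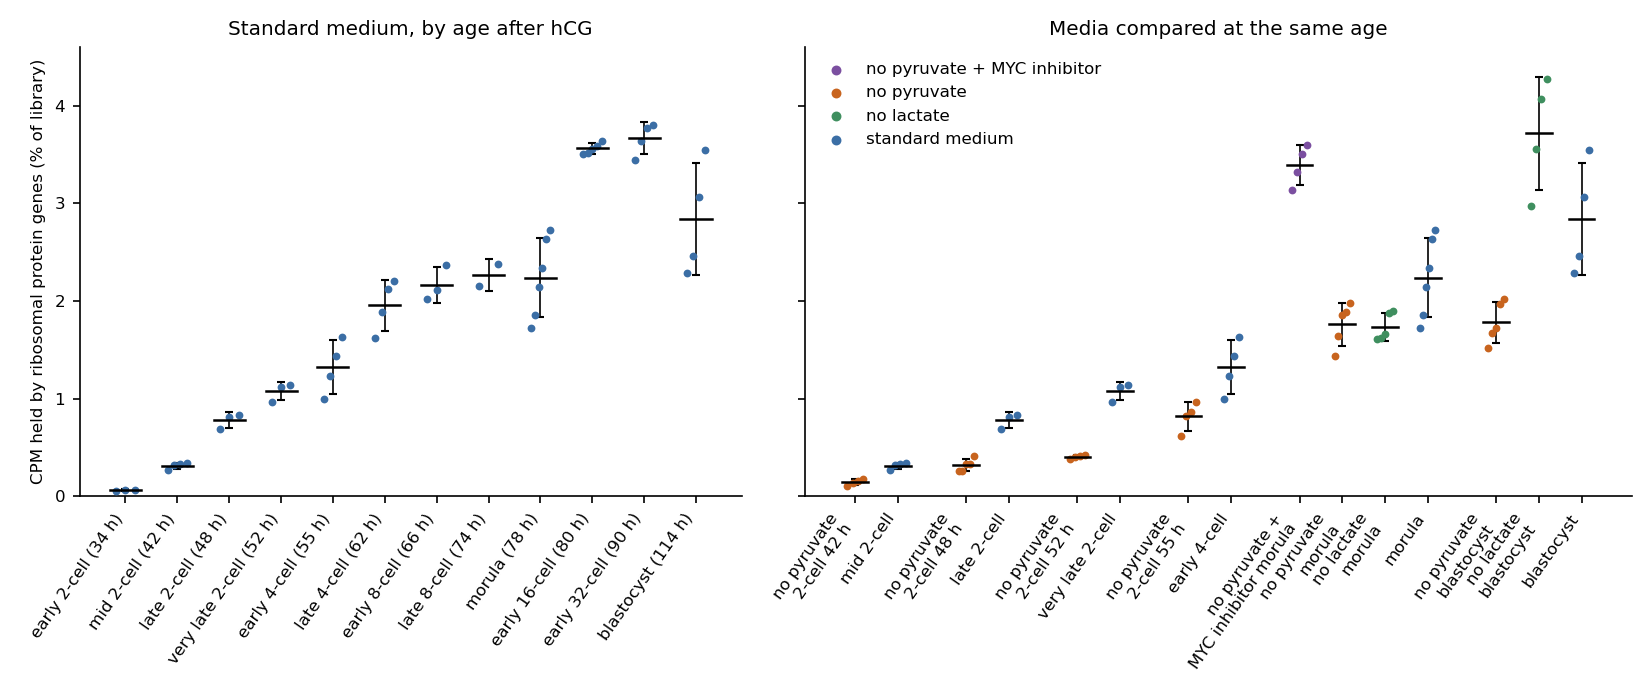
Share of all CPM (percent) held by the 89 cytosolic ribosomal protein genes in each library. The left panel follows standard medium by age after hormone injection, and the right panel sets the altered media beside standard medium of the same age; points are libraries and bars are means. The share was lowest in the early 2-cell embryo (0.0643%) and highest among standard groups at the early 32-cell stage (3.66%), and all libraries without pyruvate at 42, 48, 52 and 55 h lie below those of the standard group of the same age.

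Without pyruvate, the share was 0.144% ± 0.0308 at 42 h, against 0.313% ± 0.0324 in mid 2-cell embryos in standard medium. It was 0.32% ± 0.0645 without pyruvate at 48 h against 0.78% ± 0.0783 in standard medium, and 0.406% ± 0.0162 at 52 h against 1.07% ± 0.0926. At 55 h it was 0.817% ± 0.146 in the 2-cell embryos without pyruvate, against 1.32% ± 0.276 in standard embryos, which had reached the early 4-cell stage. The groups did not overlap at any of these ages. At 42 h the core members alone held 0.06593% ± 0.00727 without pyruvate and 0.2324% ± 0.0276 in standard medium. Rps27l averaged 745 CPM without pyruvate and 627.5 CPM in standard medium at that age. The 100 most abundant genes of a library held 31.4% of CPM without pyruvate against 22.1% in standard medium at 52 h, and 48.6% against 41.1% at 42 h. CPM are shares, so these values bear on every level below, and their part in the results was not tested.

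The early 2-cell embryo held little polyadenylated RNA of most members, as a share of all CPM. Of the 77 core members, 36 had a mean below 1 CPM there and 76 had their lowest mean of the standard course there. Rpl17, a large-subunit protein near the exit of the nascent chain, had its lowest mean in the very late 2-cell embryo. The median core level was 1.07 CPM in the early 2-cell embryo, 13.1 CPM in the mid, 49.2 CPM in the late, 66.1 CPM in the very late 2-cell embryo and 96.4 CPM in the early 4-cell embryo. It was 150.4 CPM in the late 4-cell embryo, 167 CPM in the early 8-cell embryo, 269 CPM at the early 16-cell stage and 225 CPM in the blastocyst. The core members had their highest mean at different stages, 28 at the early 32-cell stage, 19 at the early 16-cell stage, 12 in the blastocyst, 8 in the early 8-cell and 6 in the late 8-cell embryo.

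What there was of polyadenylated ribosomal protein RNA in the early 2-cell embryo was spread unevenly. The 5 most abundant core members held 54.85% of core CPM, and the 10 most abundant held 71.5%. Rplp0, which with Rplp1 and Rplp2 forms the stalk that recruits translation factors, averaged 40.6 CPM, Rpl4 39.8 CPM, Rpl15 35.7 CPM, Rpl17 31.6 CPM and Rplp2 23.2 CPM. Per kilobase of transcript, Rplp2 was the highest core member with 55.1 CPM per kb, followed by Rpl15 with 44.5 CPM per kb. In the mid 2-cell embryo Rpl41, which encodes the smallest ribosomal protein, was the highest with 735 CPM per kb. The summed small-subunit members were below the summed large-subunit members, with a log2 ratio of -1.97 ± 0.09 in the early and -1.60 ± 0.11 in the mid 2-cell embryo, -0.61 ± 0.10 in the late 2-cell embryo, -0.29 ± 0.08 in the early 4-cell embryo and -0.37 ± 0.05 in the blastocyst (mean and SD). The sums cover 31 small-subunit and 46 large-subunit core members, so a ratio below 0 does not by itself mean less CPM per small-subunit gene. The 5 most abundant core members of the early 2-cell embryo were all of the large subunit.

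Nearly all members rose between the early and the mid 2-cell embryo. In limma, on log2(CPM + 1) with Benjamini-Hochberg adjustment over all genes and a threshold of 0.05, 86 of 88 members tested were higher in the mid 2-cell embryo, 0 were lower and 2 did not pass (Rpl17 and Rps12l1). Rpl32l was below the filter in these libraries. Over all genes tested, 42.9% were higher and 7.71% lower, and the median log2 change was 2.18 over the members and 0.43 over all genes. All 31 small-subunit core members rose, with a median log2 change of 2.38, and 45 of 46 large-subunit members, with a median of 1.81. Of the 38 core members with low copies, all 38 rose (median 2.30). Log2 changes on this scale understate those of genes near 1 CPM. With other scalings of the libraries the median over all genes was 0.14 (median-ratio) and -0.10 (quantile), and the members' count was 78 higher and 0 lower under the median-ratio one.

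For log2 changes and differences of effects from limma, ± gives the standard error of the fit. For shares and log2 ratios it stays the SD over libraries. Rpl41 had 254, 326, 344 and 359 CPM in mid 2-cell libraries and 4.88, 8.01 and 8.88 CPM in early 2-cell libraries, a log2 change of 5.31 ± 0.30, adjusted p = 6.7e-19. The stalk protein Rplp0 had 607, 662, 777 and 803 CPM in mid and 36.1, 40.7 and 45.1 CPM in early 2-cell libraries (4.09 ± 0.21, adjusted p = 3.0e-20). Rps3, a small-subunit protein at the mRNA entry site, had 27.1, 39.7, 44.9 and 45.6 CPM in mid and 0.943, 1.38 and 1.81 CPM in early 2-cell libraries (4.07 ± 0.17, adjusted p = 2.1e-23). For these 3 genes every mid 2-cell library lay far above every early one. The laminin-receptor-related small-subunit gene Rpsa changed by 3.67 ± 0.17, adjusted p = 1.0e-21, Rplp1 by 3.44 ± 0.24, adjusted p = 7.2e-16 and Rplp2 by 1.66 ± 0.21, adjusted p = 1.1e-08, so that the stalk proteins, of which Rplp2 had been the highest per kilobase before, rose by unequal amounts.

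Some members that were abundant in the early 2-cell embryo changed little. Rpl17 had 32.4, 33.8, 36 and 36.5 CPM in mid and 30.2, 32 and 32.6 CPM in early 2-cell libraries, which overlapped, and did not pass the test (0.13 ± 0.21, adjusted p = 0.65). Rpl15, a core protein of the large subunit, had 49.3, 51.6, 54.6 and 55.3 CPM in mid and 29.8, 38.2 and 39.1 CPM in early 2-cell libraries (0.56 ± 0.18, adjusted p = 0.0084), with a direction that turned to -0.052 under median-ratio and -0.037 under quantile scaling. Its call was lost without early 2-cell replicate 1 (0.44). Rps27l, a paralog of Rps27 and a known target of p53, had 597, 608, 649.9 and 654 CPM in mid and 244, 336 and 350.2 CPM in early 2-cell libraries (1.03 ± 0.23, adjusted p = 1.9e-04), or a log2 change of 0.41 that did not pass under median-ratio scaling. Per kilobase of transcript its early 2-cell level of 621 CPM per kb was above that of every core member.

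The late 2-cell embryo again held more of nearly every member than the mid 2-cell embryo. Of 88 members, 86 rose and 2 fell, against 43.4% higher and 15.6% lower over all genes, with a median log2 change of 1.89 over the members and 0.39 over all genes. Rps27 had 16.7, 19.5 and 20.7 CPM in late and 0.824, 2.01, 2.04 and 2.4 CPM in mid 2-cell libraries (2.86 ± 0.21, adjusted p = 5.2e-15), having been at 0, 0.0631 and 0.0971 CPM in the early ones. Rpl14 had 54.6, 64.8 and 65 CPM in late and 6.54, 7.29, 8.45 and 9.32 CPM in mid libraries (2.82 ± 0.18, adjusted p = 9.6e-17), and the groups of both genes did not overlap. The 2 that fell were Rpl17, with 12.1, 12.7 and 17.7 CPM in late and 32.4, 33.8, 36 and 36.5 CPM in mid libraries (-1.25 ± 0.21, adjusted p = 1.6e-06), and Rps27l, with 257, 353 and 384 CPM in late and 597, 608, 649.9 and 654 CPM in mid libraries (-0.94 ± 0.23, adjusted p = 4.7e-04). The fall of Rpl17 turned to a log2 change of 0.32 when the CPM of its processed copies, which average 220.5 CPM against 36.7 CPM for Rpl17, were added.

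From 48 h to 62 h the rise went on in part of the members at each step. In the very late against the late 2-cell embryo, 32 of 88 members rose, 1 fell and 55 did not pass, against 16.4% higher and 17.6% lower over all genes. The median was 0.48 over the members and -0.00 over all genes. The count of higher members was 19 without late 2-cell replicate 3, 20 without very late 2-cell replicate 2 and 14 with median-ratio scaling. Rps10, a small-subunit protein near the mRNA entry, had 149.9, 165 and 229 CPM in very late and 64.3, 69.4 and 74.3 CPM in late libraries (1.35 ± 0.19, adjusted p = 4.8e-07), and Rpl29 had 27.9, 30.6 and 36.3 CPM in very late and 9.29, 10.4 and 11.2 CPM in late libraries (1.53 ± 0.26, adjusted p = 1.0e-05). The groups of both were apart. Rpl23a, a protein at the exit of the nascent chain, was the 1 that fell, with 8.16, 9.5 and 15.5 CPM in very late and 15.3, 23.9 and 24.4 CPM in late libraries, which overlapped (-0.90 ± 0.27, adjusted p = 0.0078), and its call was lost without very late 2-cell replicate 3 (-0.72) and with processed copies added (-0.39).

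In the early 4-cell against the very late 2-cell embryo, 38 members rose and 2 fell (12.4% higher and 31.5% lower over all genes), with a median of 0.45 over the members and -0.21 over all genes. Rps6, the small-subunit protein phosphorylated by S6 kinase, had 195, 233, 258 and 292 CPM in early 4-cell and 92.1, 93.1 and 115 CPM in very late 2-cell libraries (1.27 ± 0.16, adjusted p = 1.7e-08). The groups did not overlap. The annotated pseudogene Rps4l fell to 63.1, 76.8, 92.3 and 102 CPM in early 4-cell libraries, against 169, 171 and 219 CPM in very late 2-cell libraries (-1.16 ± 0.23, adjusted p = 6.1e-05), and Rpl39 fell (log2 change of -0.66 ± 0.26, adjusted p = 0.036), a call lost in 5 of 7 runs that each left out 1 library. In the late against the early 4-cell embryo, 62 members rose and 3 fell (13.4% higher, 26.6% lower and 40% either way over all genes), with a median of 0.69 over the members and -0.11 over all genes. Rpl13a had 201, 215, 229.7 and 276 CPM in late and 69.7, 81.2, 103 and 132 CPM in early 4-cell libraries (1.28 ± 0.18, adjusted p = 3.7e-07), without overlap. Rpl10l, an intronless copy of Rpl10 known from the testis, fell to 42.9, 72.6, 77.1 and 89.6 CPM in late 4-cell libraries, against 119, 140.1, 158 and 159 CPM in early ones (-1.06 ± 0.27, adjusted p = 0.0018). The muscle paralog Rpl3l fell as well (log2 change of -0.58 ± 0.21, adjusted p = 0.023), with the call lost without early 4-cell replicate 1 (-0.45) or late 4-cell replicate 3 (-0.51) and under median-ratio (-0.46) or quantile scaling (-0.27). Rps10 fell too, with a log2 change of -0.60 ± 0.16, adjusted p = 0.003, or of -0.35 and not passing with its processed copies added.

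Between 62 h and 78 h few members passed. In the early 8-cell against the late 4-cell embryo, 1 member rose and 1 fell (2.44% higher, 5.01% lower and 7.45% either way over all genes). Rpl4, a large-subunit core protein, had 1306, 1383 and 1440 CPM in early 8-cell and 957, 1012, 1032 and 1045 CPM in late 4-cell libraries (0.44 ± 0.13, adjusted p = 0.022). The groups were apart, but the call was lost in 3 of 7 runs that each left out 1 library, at log2 changes between 0.41 and 0.44. Rpl3l fell to 0.185, 1.59 and 2.33 CPM in early 8-cell libraries, against 4.71, 5.35, 5.72 and 6.94 CPM in late 4-cell libraries (-1.61 ± 0.23, adjusted p = 6.1e-06). Neither passed when only these groups entered the fit. In the late against the early 8-cell embryo, limma called 0 members in either direction (2.6% higher, 4.53% lower and 7.13% either way over all genes), with 1 at an unadjusted p under 0.05. In the morula against the late 8-cell embryo it again called 0 (1.03% higher, 1.49% lower and 2.52% either way over all genes), with 7 at an unadjusted p under 0.05, and 1 without morula replicate 6. The late 8-cell group held 2 libraries.

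A second rise separated the early 16-cell embryo from the morula. Of 88 members, 55 rose, 4 fell and 29 did not pass, against 9.83% higher and 27.7% lower over all genes, and the median was 0.66 over the members and -0.13 over all genes. Of the 38 core members with low copies, 29 rose and 0 fell. Rpl36 had 144, 144, 145, 153 and 154 CPM in early 16-cell libraries and 28.6 to 60.0 CPM (median 35.6) in 6 morula libraries (1.95 ± 0.19, adjusted p = 4.6e-11). Rpl39, a small protein lining the exit tunnel, had 356, 366, 385, 407 and 420.4 CPM in early 16-cell libraries and 77.6 to 160.4 CPM (median 107) in morulae (1.85 ± 0.20, adjusted p = 1.2e-09). Rpl3, which sits near the peptidyl transferase centre, had 187, 201, 234, 243 and 254 CPM in early 16-cell libraries and 50.6 to 119 CPM (median 57.4) in morulae (1.73 ± 0.19, adjusted p = 1.4e-09). Early 16-cell libraries lay close together for all 3 genes and above every morula library.

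Members that fell at this step did so mostly with wide spread among morulae. Rps12, a small-subunit protein, had 4.98, 6.3, 6.87, 6.93 and 7.67 CPM in early 16-cell libraries and 8.59 to 27.8 CPM (median 10.1) in morulae (-0.79 ± 0.22, adjusted p = 0.0031), without overlap, but with its processed copies added the log2 change was 0.25. Rpl5, which binds 5S ribosomal RNA together with Rpl11 and with it can bind MDM2, had 56.6, 58, 59.1, 62.1 and 66.7 CPM in early 16-cell libraries and 47.6 to 253 CPM (median 75.9) in morulae (-0.59 ± 0.23, adjusted p = 0.041). The Rpl5 groups overlapped, and its log2 change was -0.30 without morula replicate 1 and -0.49 without morula replicate 2, not passing in either case. The log2 change of Rpl10l was -0.70 ± 0.23, adjusted p = 0.015, or -0.39 and not passing without morula replicate 1, and that of Rpl3l was -0.49 ± 0.18, adjusted p = 0.026, lost in 4 of 11 runs that each left out 1 library. None of these 4 falls passed under median-ratio scaling (log2 changes of -0.47 for Rps12, -0.24 for Rpl5, -0.35 for Rpl10l and -0.34 for Rpl3l) or under quantile scaling. Without morula replicates 1 and 2, which earlier work on these data had named as apart from the others, 65 members rose and 1 fell. Mitochondrially encoded genes held 5.74% of CPM at the early 16-cell stage and 3.58% ± 2.52 in morulae (1.36% to 8.25% over the 6 libraries), and their part in the difference was not tested.

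Between the early 16-cell and the early 32-cell embryo limma called 0 members (8.49% higher, 12.2% lower and 20.7% either way over all genes), with 8 at an unadjusted p under 0.05. When only these groups entered the fit, 13 were higher. In the blastocyst against the early 32-cell embryo, 34 members fell, 6 rose and 48 did not pass (29.1% lower and 12.6% higher over all genes), a balance that turned to 8 lower and 17 higher under median-ratio scaling and was 22 lower and 9 higher under quantile scaling and 27 lower and 12 higher after a correction for gene length. The median was -0.40 over the members and -0.14 over all genes. Rps3 had 730, 789, 1111 and 1159 CPM in blastocyst and 1801, 1849, 2052 and 2065 CPM in early 32-cell libraries (-1.06 ± 0.15, adjusted p = 2.5e-07), and Rpl9 had 11.5, 11.7, 14.7 and 15.5 CPM in blastocyst and 37.6, 37.7, 38.5 and 42.4 CPM in early 32-cell libraries (-1.49 ± 0.13, adjusted p = 4.6e-13). All blastocysts were lower than all early 32-cell libraries for both, but the fall of Rps3 did not pass under median-ratio scaling (-0.44). Rpl7l1, related to a ribosome assembly factor of yeast, had 79.8, 96.6, 110.5 and 116 CPM in blastocyst and 282, 296, 305 and 322 CPM in early 32-cell libraries (-1.58 ± 0.17, adjusted p = 3.1e-10).

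The 6 that rose in the blastocyst were Rpl22l1, Rps28, Rps23, Rps27, Rps29 and the annotated pseudogene Rps4l. Rpl22l1, the paralog of Rpl22, had 38.6, 45.6, 57.6 and 112 CPM in blastocyst and 11.2, 14.2, 20.9 and 21.2 CPM in early 32-cell libraries (1.77 ± 0.26, adjusted p = 3.6e-07). Rpl22 itself had 60.1, 65.8, 86.6 and 162 CPM in blastocyst and 148, 156, 165 and 179 CPM in early 32-cell libraries (-0.90 ± 0.22, adjusted p = 9.4e-04), with 1 blastocyst library of Rpl22 inside the range of the early 32-cell libraries. The fall of Rpl22 did not pass under median-ratio (-0.29) or quantile scaling (-0.52). Rps28 had 217, 223, 247 and 306 CPM in blastocyst and 132, 145, 150.4 and 154 CPM in early 32-cell libraries (0.76 ± 0.17, adjusted p = 4.0e-04). The small-subunit gene Rps27 changed by 0.60 ± 0.19, adjusted p = 0.01 without overlap, a call lost without blastocyst replicate 4 (0.45).

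**Figure D2:**
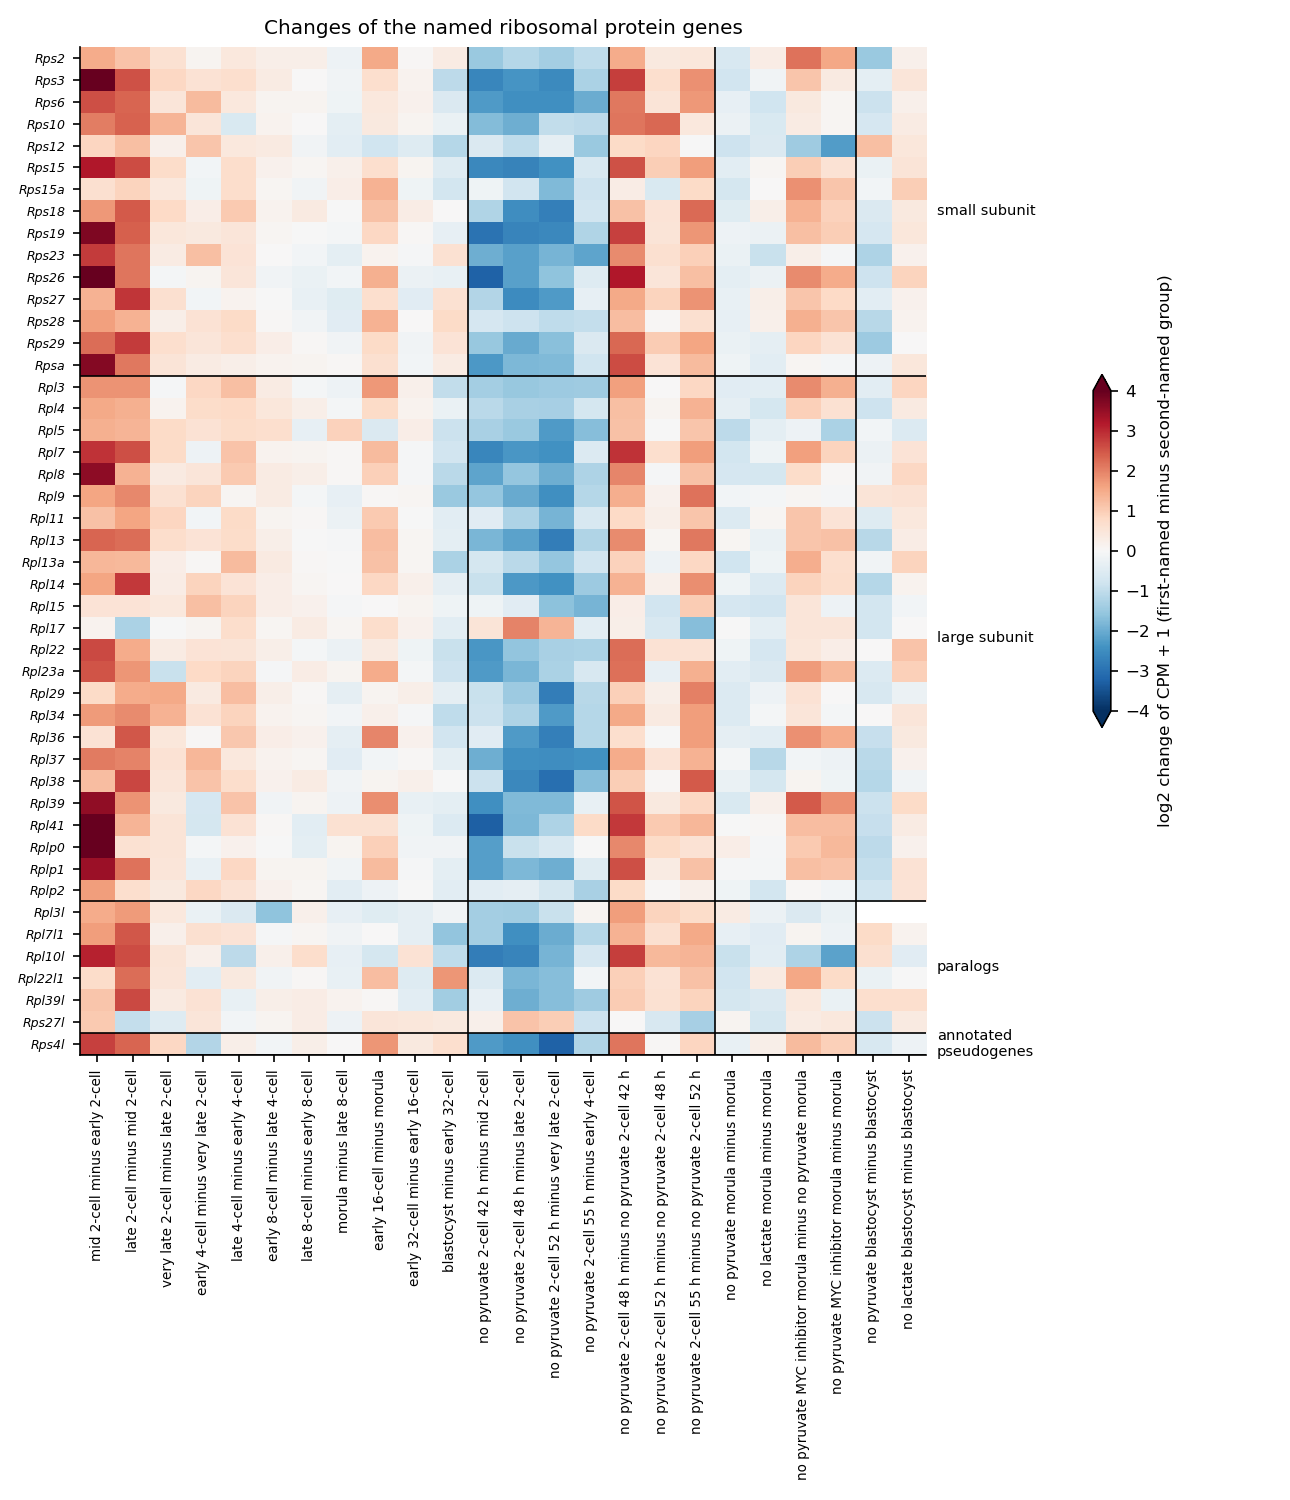
Log2 change of the ribosomal protein genes named with a value in the text (rows, grouped as small subunit, large subunit, paralogs and annotated pseudogenes) in 24 two-group comparisons (columns, limma on log2(CPM + 1)). Red is higher and blue lower in the group named first, the colour scale saturates beyond its ends, and blank cells are genes below the filter. The steps to the mid and the late 2-cell embryo are red and the comparisons without pyruvate at 42 to 55 h are blue over most genes, with Rpl17 and Rps27l standing out in the other direction at 48 and 52 h.

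Mid-age 2-cell embryos without pyruvate held less of most members than embryos of the same age in standard medium. At 42 h, 76 of 88 members were lower without pyruvate, 1 was higher and 11 did not pass, against 31.2% lower and 5.58% higher over all genes. The median log2 change was -1.53 over the members and -0.26 over all genes, and of the 38 core members with low copies 35 were lower. Of the 77 core members, 16 had a mean below 1 CPM without pyruvate and 0 in standard medium. The log2 ratio of summed small- to large-subunit members was -1.96 ± 0.17 without pyruvate and -1.60 ± 0.11 in standard medium.

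Rpl41 had 28.7, 30.5, 32.8 and 37.5 CPM without pyruvate and 254, 326, 344 and 359 CPM in standard medium at 42 h (-3.27 ± 0.21, adjusted p = 3.3e-15). Rps3 had 4.72, 4.82, 6.19 and 6.5 CPM without pyruvate and 27.1, 39.7, 44.9 and 45.6 CPM in standard medium (-2.60 ± 0.22, adjusted p = 4.4e-12), and Rplp0 had 132, 144, 166 and 167 CPM without pyruvate and 607, 662, 777 and 803 CPM in standard medium (-2.22 ± 0.15, adjusted p = 9.6e-15). All libraries without pyruvate were below all standard libraries for these genes and above all early 2-cell libraries. Rpl17 was the 1 member called higher, with 35.5, 47.9, 56.2 and 64.4 CPM without pyruvate and 32.4, 33.8, 36 and 36.5 CPM in standard medium, which overlapped (0.51 ± 0.21, adjusted p = 0.049), and the call was lost in 7 of 8 runs that each left out 1 library. Rps27l had 486, 654, 816 and 1025 CPM without pyruvate and 597, 608, 649.9 and 654 CPM in standard medium, which overlapped and did not pass (0.20 ± 0.21, adjusted p = 0.54), but did under median-ratio scaling (0.72) and after a correction for gene length (0.48).

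At 48 h, 85 members were lower without pyruvate, 2 were higher and 1 (Rplp2) did not pass (34.3% lower and 22.6% higher over all genes), with a median of -1.76 over the members and -0.14 over all genes. Rps15 had 7.05, 8.28, 15.3, 17.5 and 19.5 CPM without pyruvate and 75.2, 89.5 and 91.5 CPM in standard medium (-2.66 ± 0.26, adjusted p = 1.2e-10), and Rps19, a small-subunit protein mutated in Diamond-Blackfan anaemia in humans, had 12, 14, 22.2, 25.1 and 25.2 CPM without pyruvate and 108, 126 and 135 CPM in standard medium (-2.63 ± 0.23, adjusted p = 1.0e-11). Rps27 had 0.912, 2.05, 2.66, 2.68 and 5.42 CPM without pyruvate and 16.7, 19.5 and 20.7 CPM in standard medium (-2.52 ± 0.28, adjusted p = 1.2e-09). No library without pyruvate reached a standard one for these 3. The 2 that were higher were Rps27l, with 563, 626, 727, 801 and 961 CPM without pyruvate and 257, 353 and 384 CPM in standard medium (1.14 ± 0.22, adjusted p = 2.6e-05), and Rpl17, with 50.3, 52.2, 60.6, 63.2 and 69.7 CPM without pyruvate and 12.1, 12.7 and 17.7 CPM in standard medium (2.00 ± 0.21, adjusted p = 6.7e-10). The groups of both were apart. With processed copies added, the log2 change of Rpl17 was 0.29 and did not pass.

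At 52 h, 83 members were lower without pyruvate, 2 were higher and 3 (Rpl12, Rpl6l and Rps12) did not pass (31.3% lower and 31.9% higher over all genes). The median was -1.82 over the members and 0.08 over all genes. Rpl38, a large-subunit protein whose loss alters Hox mRNA translation in mice, had 2.27, 2.38, 2.5 and 3.62 CPM without pyruvate and 23.2, 30.0 and 34.1 CPM in standard medium (-3.02 ± 0.33, adjusted p = 1.5e-09). Rpl13 had 5.24, 5.29, 5.34 and 7.03 CPM without pyruvate and 44.2, 45.1 and 45.2 CPM in standard medium (-2.78 ± 0.25, adjusted p = 3.0e-11), and Rps6 had 15.3, 17.2, 17.8 and 19.7 CPM without pyruvate and 92.1, 93.1 and 115 CPM in standard medium (-2.45 ± 0.21, adjusted p = 9.2e-12). Every library without pyruvate was below every standard library for these 3. Rps27l was higher, at 427, 439, 466 and 505 CPM without pyruvate and 206, 242 and 245 CPM in standard medium (0.99 ± 0.23, adjusted p = 2.9e-04). Rpl17 was also higher without pyruvate (1.37 ± 0.22, adjusted p = 2.4e-06), but its log2 change was -0.66 when the processed copies were added.

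At 55 h the embryos without pyruvate, still at the 2-cell stage, were set against early 4-cell embryos, so age was matched and stage was not. Inferred read totals were apart as well, at 10.2 M to 18.6 M without pyruvate and 27.0 M to 42.4 M in early 4-cell libraries, and the part of depth was not tested. Of 88 members, 73 were lower, 1 was higher and 14 did not pass (19.5% lower and 37.7% higher over all genes), with a median of -1.01 over the members and 0.27 over all genes. Rpl37 had 5.63, 14.9, 22.7 and 26.4 CPM without pyruvate and 54.7, 82.8, 94.3 and 130 CPM in standard medium (-2.43 ± 0.31, adjusted p = 3.8e-08), and Rps6 had 41, 65.3, 68.9 and 69.9 CPM without pyruvate and 195, 233, 258 and 292 CPM in standard medium (-2.0 ± 0.20, adjusted p = 1.7e-10). Rpl41 was the 1 that was higher, with 1004, 1206, 1264 and 1426 CPM without pyruvate and 534, 668, 804 and 922 CPM in standard medium (0.76 ± 0.21, adjusted p = 0.002). The groups of these 3 genes were apart. Rplp0 had 1118, 1497, 1559 and 1744 CPM without pyruvate and 1289, 1457, 1469 and 1697 CPM in standard medium, which overlapped (-0.01 ± 0.15, adjusted p = 0.97). Rps27l, higher without pyruvate at 48 and 52 h, was lower at 55 h, with 132, 193, 209 and 209.5 CPM without pyruvate and 204, 308, 368 and 483 CPM in standard medium (-0.83 ± 0.21, adjusted p = 0.001).

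**Figure D3:**
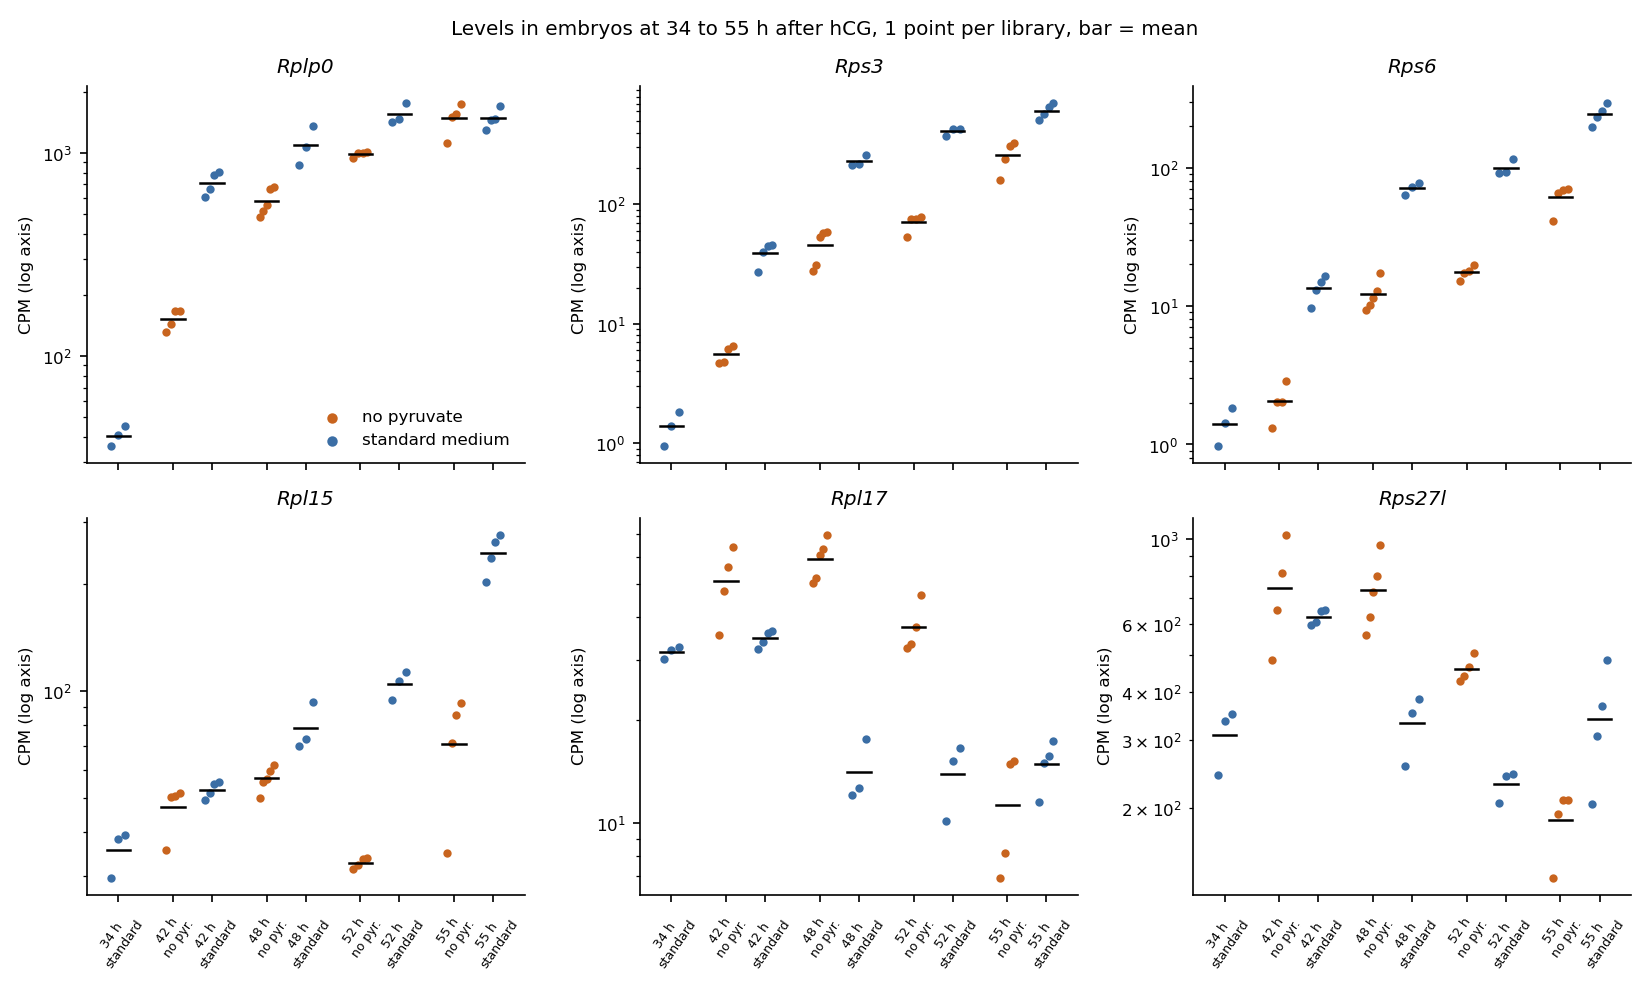
CPM (log axis) of Rplp0, Rps3, Rps6, Rpl15, Rpl17 and Rps27l in each library from 34 to 55 h, without pyruvate left of standard medium at each age; points are libraries and bars are means. Rps3 and Rps6 lie lower without pyruvate at 42 to 55 h, whereas Rpl17 and Rps27l lie higher at 48 and 52 h; the standard embryos at 55 h are early 4-cell embryos.

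Maternal RNA moved with these differences. The 7 maternal oocyte markers summed to 30900 to 33340 CPM without pyruvate against 21310 to 24490 CPM in standard medium at 42 h, to 16000 to 21200 against 3527 to 3886 CPM at 48 h, to 5224 to 5824 against 851 to 1025 CPM at 52 h and to 869 to 1133 against 248 to 331 CPM at 55 h. The 6 markers of the 2-cell embryo summed to 1456 to 2539 CPM without pyruvate against 2454 to 3293 CPM at 42 h, and to 1571 to 1822 against 932 to 1344 CPM at 52 h. The part of a difference in developmental timing between the media in the members' changes was not tested.

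Within the medium without pyruvate the members rose with age as well. From the 42 h to the 48 h embryos, 83 of 88 members rose and 0 fell (52.3% higher, 3.54% lower and 55.8% either way over all genes), with a median of 1.67 over the members and 0.59 over all genes. Rps26 had 20.6, 21.3, 34.3, 35.8 and 47.2 CPM at 48 h and 1.84, 2.25, 2.37 and 3.45 CPM at 42 h (3.19 ± 0.22, adjusted p = 2.4e-14). Rpl7 had 10.4, 12.1, 20.4, 24.2 and 26.6 CPM at 48 h and 1.02, 1.3, 1.79 and 2.14 CPM at 42 h (2.88 ± 0.20, adjusted p = 5.5e-14), and both groups were apart for both genes. The 5 that did not pass were Rpl15, Rpl17, Rpl32, Rps15a and Rps27l.

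At 52 h against 48 h without pyruvate, 32 members rose, 4 fell and 52 did not pass (27.7% higher and 12.7% lower over all genes), with a median of 0.38 over the members and 0.19 over all genes. The count of higher members was 18 without the 48 h replicate 2, 17 without the 48 h replicate 3, 11 with 6 lower under median-ratio scaling and 13 with 6 lower under quantile scaling. Rps10 had 63.8, 85.8, 104 and 112 CPM at 52 h and 10.2, 14.4, 18.8, 22.8 and 23.7 CPM at 48 h (2.31 ± 0.26, adjusted p = 2.4e-08). Rpl15 had 31.5, 32.4, 33.5 and 33.9 CPM at 52 h and 49.9, 55.3, 56.5, 59.4 and 62 CPM at 48 h (-0.77 ± 0.18, adjusted p = 7.9e-04), Rpl17 changed by -0.65 ± 0.20, adjusted p = 0.0075 and Rps27l by -0.66 ± 0.20, adjusted p = 0.0082. Rps15a changed by -0.60 ± 0.22, adjusted p = 0.028, a call lost in 4 of 9 runs that each left out 1 library. The libraries of Rps10 were all higher and those of Rpl15 all lower at 52 h than at 48 h.

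At 55 h against 52 h without pyruvate, 78 members rose and 2 fell (33.7% higher and 26.1% lower over all genes), with a median of 1.2 over the members and 0.13 over all genes. Rpl38 had 10.9, 19, 23.7 and 27.2 CPM at 55 h and 2.27, 2.38, 2.5 and 3.62 CPM at 52 h (2.46 ± 0.31, adjusted p = 2.4e-08), and Rps18, at the head of the small subunit, had 20.1, 26, 46.9 and 49.5 CPM at 55 h and 4.35, 6.39, 6.96 and 7.42 CPM at 52 h (2.25 ± 0.26, adjusted p = 6.1e-09). The 2 that fell were Rps27l (-1.32 ± 0.21, adjusted p = 1.7e-06) and Rpl17, which had 6.94, 8.16, 14.9 and 15.2 CPM at 55 h and 32.4, 33.4, 37.3 and 46.4 CPM at 52 h (-1.70 ± 0.21, adjusted p = 1.4e-08). These are the members that also fell in standard medium between 42 and 48 h, and with its processed copies added Rpl17 changed by 0.25 instead. No library of these genes overlapped between the ages.

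Whether the effect of removing pyruvate differed between ages was tested as the difference of the effects. Between 48 and 42 h, 8 members had a more positive and 10 a more negative effect at 48 h, and 70 did not pass (21.5% and 10.3% over all genes). Under quantile scaling these counts were 5 and 13, after a correction for gene length 6 and 14, with a pseudocount of 0.1 the more negative count was 4, and without late 2-cell replicate 3 the higher count was 5. The difference was 1.31 ± 0.21, adjusted p = 1.1e-05 for Rplp0, 1.48 ± 0.29, adjusted p = 2.2e-04 for Rpl41 and 1.49 ± 0.30, adjusted p = 2.2e-04 for Rpl17, whereas that of Rpl17 was -0.024 with processed copies added. The difference of Rpl41 did not pass under quantile scaling (0.47). For Rpl36 it was -1.82 ± 0.36, adjusted p = 2.1e-04. For Rps27, which was near 0 CPM without pyruvate at 42 h, it was -1.33 ± 0.38, adjusted p = 0.0073, but -0.33 and not passing with a pseudocount of 0.1. For Rps27l it was 0.95 ± 0.30, adjusted p = 0.014, not passing without late 2-cell replicate 3 (0.78) or under median-ratio scaling (0.75). Between 52 and 48 h, 4 members had a more negative effect at 52 h and 0 a more positive one (3.69% and 9.74% over all genes). They were Rpl15 (-1.18 ± 0.28, adjusted p = 0.0052), Rpl29 (-1.30 ± 0.33, adjusted p = 0.0093), Rpl34 (-1.02 ± 0.33, adjusted p = 0.033) and Rps15a (-1.01 ± 0.35, adjusted p = 0.046). The call of Rps15a was lost in 12 and that of Rpl34 in 6 of 15 runs that each left out 1 library, both were lost with a pseudocount of 0.1 or no filter, and that of Rps15a also with the replicate number as a block (-0.92). The count was 2 without late 2-cell replicate 2 or 3, very late 2-cell replicate 2, replicate 4 of the 48 h or replicate 1 of the 52 h embryos without pyruvate.

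At the morula stage the differences between media were smaller. The members held 1.76% ± 0.22 of CPM without pyruvate, 1.73% ± 0.143 without lactate, 3.39% ± 0.206 without pyruvate with the MYC inhibitor and 2.24% ± 0.405 in standard medium. Without pyruvate, 42 of 88 members were lower than in standard medium, 0 were higher and 46 did not pass (6.62% lower and 32.8% higher over all genes). The median was -0.36 over the members and 0.28 over all genes. The lower count was 64 under median-ratio scaling, 79 after a correction for gene length, 19 when only these groups entered the fit and 27, with 2 higher, without standard morula replicates 1 and 2. Rps3 had 592, 644, 651, 698 and 714 CPM without pyruvate and 989 to 1342 CPM (median 1062) in standard morulae (-0.75 ± 0.12, adjusted p = 2.9e-05). Rpl11 had 30.2, 39, 40.1, 40.3 and 41.8 CPM without pyruvate and 47 to 67.8 CPM (median 56) in standard morulae (-0.55 ± 0.14, adjusted p = 0.0047), and both were apart. Its partner Rpl5 had 36.5, 43.9, 44.5, 45.5 and 50.1 CPM without pyruvate and 47.6 to 253 CPM (median 75.9) in standard morulae, which overlapped (-1.05 ± 0.27, adjusted p = 0.0041).

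Without lactate, 28 members were lower than in standard morulae, 0 were higher and 60 did not pass (3.42% lower and 8.37% higher over all genes), with a median of -0.35 over the members and 0.10 over all genes. Rpl37 had 38.1, 42, 44.5, 48.7 and 49.5 CPM without lactate and 81.6 to 109.9 CPM (median 103) in standard morulae (-1.11 ± 0.14, adjusted p = 5.7e-05), and Rps6 had 183, 184, 185, 192 and 199 CPM without lactate and 281 to 427 CPM (median 327) in standard morulae (-0.80 ± 0.13, adjusted p = 5.1e-04). Rpl22 had 78.3, 81.8, 86.9, 96.8 and 100.1 CPM without lactate and 109 to 174 CPM (median 151) in standard morulae (-0.69 ± 0.17, adjusted p = 0.0099). Libraries without lactate lay below all standard libraries for these 3. Rps23, at the decoding centre, changed by -0.90 ± 0.18, adjusted p = 0.003, but by -0.52, not passing, with its processed copies added. Rps27l changed by -0.69 ± 0.19, adjusted p = 0.022, a call lost without standard morula replicate 2 (-0.59) and without replicate 1, 4 or 5 of the morulae without lactate (-0.66). The media comparisons at this age share the standard morulae, in which mitochondrially encoded genes held 1.36% to 8.25% of CPM, against 5.41% to 8.31% without lactate and 0.235% to 2.09% without pyruvate.

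Morulae without pyruvate that were treated with the MYC inhibitor held more of most members, in CPM, than those without it. Against morulae without pyruvate, 63 of 88 members were higher with the inhibitor, 6 were lower and 19 did not pass. Over all genes 8.61% were higher and 67.1% lower, and the median was 0.86 over the members and -0.90 over all genes. With median-ratio scaling the median over all genes was -0.21, and 80 members were higher and 0 lower. Of the 38 core members with low copies, 34 were higher and 0 lower. Rpl39 had 319.5, 326, 425 and 468 CPM with the inhibitor and 56.7, 58.3, 61.9, 85.5 and 88.4 CPM without it (2.44 ± 0.22, adjusted p = 4.4e-09). Rps2, at the mRNA entry site, had 159, 180.4, 203 and 209.6 CPM with the inhibitor and 36, 36.4, 43.5, 43.5 and 45.9 CPM without it (2.17 ± 0.16, adjusted p = 2.7e-10), and Rpl3 had 155, 160.2, 202 and 209.8 CPM with the inhibitor and 39.4, 46.5, 47.5, 49.5 and 57.4 CPM without it (1.89 ± 0.20, adjusted p = 4.5e-08). All inhibitor libraries were above all others for these genes. The 100 most abundant genes held 36.4% of CPM with the inhibitor and 21.8% without it. Inferred read totals were 15.8 M to 21.5 M with the inhibitor and 33.9 M to 37.9 M without it, so the groups were also apart in depth. The part of either in the changes was not tested.

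The 6 members that were lower with the inhibitor were Rps12, Rpl10l, Rpl3l, Rpl28, Rpl31 and Rpl36a. Rps12 had 1.15, 1.63, 1.65 and 2.71 CPM with the inhibitor and 4.92, 5.96, 6.63, 6.69 and 7.52 CPM without it (-1.42 ± 0.26, adjusted p = 5.9e-05), but with processed copies added it changed by 0.36, and it did not pass under median-ratio (-0.67) or quantile scaling (-0.42). Rpl10l had 19.4, 20.0, 24.6 and 28.9 CPM with the inhibitor and 42.4, 56.5, 56.8, 58.5 and 63.2 CPM without it (-1.23 ± 0.30, adjusted p = 0.001). The inhibitor libraries lay below the others for both genes as listed, but Rpl10l did not pass under median-ratio (-0.24) or quantile scaling (-0.24) or after a correction for gene length (-0.44). Against standard morulae, 46 members were higher with the inhibitor and without pyruvate, 11 were lower and 31 did not pass (12.2% higher and 47.1% lower over all genes), and these counts were 73 and 2 under median-ratio and 49 and 2 under quantile scaling. In that comparison, Rps2 changed by 1.54 ± 0.15, adjusted p = 2.8e-08, Rpl39 by 1.83 ± 0.21, adjusted p = 2.2e-07, Rpl10l by -2.13 ± 0.29, adjusted p = 2.1e-06 and Rpl5, at 36.8, 36.9, 38.8 and 39.4 CPM with the inhibitor, by -1.25 ± 0.29, adjusted p = 8.2e-04. That of Rpl5 did not pass under median-ratio (-0.48) or quantile scaling (-0.58). Embryos in standard medium with the inhibitor were not analysed here, so an effect of the inhibitor apart from the missing pyruvate was measured only within the medium without pyruvate.

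In blastocysts the media without pyruvate and without lactate went with different levels of the members. They held 1.78% ± 0.209 of CPM without pyruvate, 3.72% ± 0.579 without lactate and 2.84% ± 0.576 in standard medium. Without pyruvate, 53 of 88 members were lower than in standard medium, 6 were higher and 29 did not pass, whereas 7.14% of all genes were lower and 80.8% higher. The median was -0.52 over the members and 1.15 over all genes, and with median-ratio scaling the median over all genes was 0.14 and 86 members were lower and 0 higher (72 and 0 under quantile scaling). Rpl3l was below the filter in blastocysts. Rplp0 had 875, 1059, 1062, 1064 and 1251 CPM without pyruvate and 1842, 2063, 2484 and 2487 CPM in standard medium (-1.06 ± 0.16, adjusted p = 4.1e-06), and Rps29, a small zinc-binding protein of the small subunit, had 210.3, 217, 222, 308 and 328 CPM without pyruvate and 492, 669, 820.4 and 854 CPM in standard medium (-1.45 ± 0.21, adjusted p = 3.9e-06). Rps2 had 43.9, 67.9, 93.7, 109.7 and 152 CPM without pyruvate and 180.4, 225, 265 and 312 CPM in standard medium (-1.48 ± 0.27, adjusted p = 4.4e-05). These 3 were lower in every library without pyruvate than in every standard library.

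The 6 members that were higher without pyruvate were Rps12, Rpl7l1, Rps12l1, Rpl39l, Rpl10l and Rpl9. Rps12 had 3.41, 3.8, 4.83, 5.41 and 5.46 CPM without pyruvate and 0.846, 1.21, 1.62 and 2.08 CPM in standard medium (1.21 ± 0.19, adjusted p = 1.1e-05), or a log2 change of 0.36 that did not pass with its processed copies added, and did not pass under median-ratio (0.25) or quantile scaling (0.14). Rpl7l1 had 146, 160.5, 181, 183 and 185 CPM without pyruvate and 79.8, 96.6, 110.5 and 116 CPM in standard medium (0.77 ± 0.14, adjusted p = 4.4e-05), but its log2 change was -0.56 under median-ratio scaling and 0.18, not passing, under quantile scaling. Rpl39l had 91.1, 100.1, 101, 109.5 and 134 CPM without pyruvate and 54, 54.5, 61.4 and 111 CPM in standard medium, which overlapped (0.66 ± 0.21, adjusted p = 0.0068), and its log2 change was -0.66 under median-ratio and -0.22 under quantile scaling. In blastocysts without pyruvate, the 100 most abundant genes held 24.5% of CPM, against 42.3% in standard blastocysts, and inner cell mass markers summed to 463 to 667 CPM against 156 to 319 CPM. Inferred read totals were 10.5 M to 17.1 M without pyruvate and 24.7 M to 32.5 M in standard blastocysts, so these groups were also apart in depth. The part of the abundant genes, the markers and the depth in these differences was not tested.

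Without lactate, 25 members were higher than in standard blastocysts, 0 were lower and 63 did not pass (14% higher and 9.29% lower over all genes), with a median of 0.39 over the members and 0.07 over all genes. The count of higher members was 10, 11 and 46 without standard blastocyst replicates 1, 2 and 4, and 9, 11 and 38 without replicates 2, 3 and 4 of the blastocysts without lactate. It was 13, with 2 lower, under median-ratio scaling. Rpl22 had 123, 173, 231 and 279 CPM without lactate and 60.1, 65.8, 86.6 and 162 CPM in standard medium, which overlapped (1.15 ± 0.27, adjusted p = 0.0062). Rps3 had 1203, 1299, 1328 and 1395 CPM without lactate and 730, 789, 1111 and 1159 CPM in standard medium, without overlap (0.49 ± 0.17, adjusted p = 0.042), and its call was lost in 6 of 8 runs that each left out 1 library. Rpl3 changed by 0.85 ± 0.26, adjusted p = 0.025, lost in 4 of 8 such runs.

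The effects of the media differed between blastocyst and morula. The effect of removing lactate was more positive in blastocysts for 36 of 89 members and more negative for 0 (4.04% and 5.54% over all genes), and the median difference was 0.77 over the members and -0.06 over all genes. Without replicate 2 of the blastocysts without lactate the count was 23. The difference was 1.83 ± 0.34, adjusted p = 6.8e-04 for Rpl22, 1.55 ± 0.31, adjusted p = 0.0015 for Rpl8 and 1.29 ± 0.28, adjusted p = 0.0028 for Rplp2. For removing pyruvate, 21 members had a more negative and 11 a more positive effect in blastocysts (12.1% and 46% over all genes), and these counts were 65 and 1 under median-ratio scaling, 32 and 5 under quantile scaling and 28 and 8 after a correction for gene length. The higher count was 18 without standard blastocyst replicate 4. The difference was -1.33 ± 0.25, adjusted p = 6.3e-05 for Rplp0, -1.18 ± 0.23, adjusted p = 6.4e-05 for Rpl13, 2.04 ± 0.33, adjusted p = 6.7e-06 for Rps12 and 1.35 ± 0.33, adjusted p = 9.4e-04 for Rpl39l. That of Rpl39l was 0.34 under median-ratio and 0.66 under quantile scaling and did not pass in either.

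**Figure D4:**
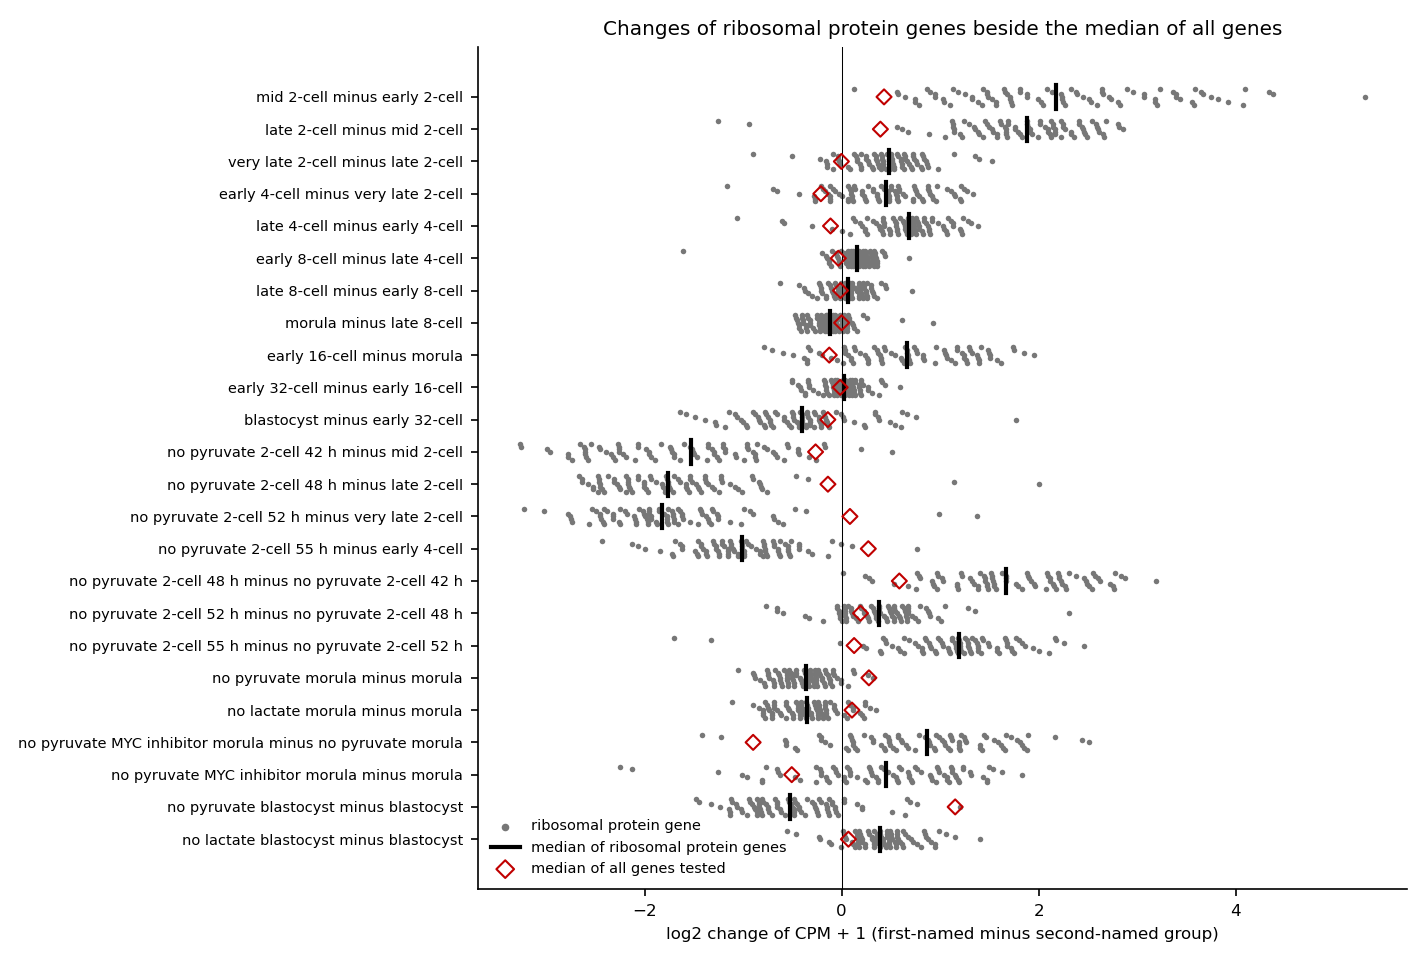
Log2 changes (limma on log2(CPM + 1)) of the ribosomal protein genes in the same two-group comparisons; grey points are genes, black bars the median of the members and red diamonds the median of all genes tested. The members' median is 2.18 between early and mid 2-cell embryos against 0.43 for all genes, and -0.52 without pyruvate in blastocysts against 1.15 for all genes.

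The annotated pseudogene Rps4l and all paralogs except Rpl7l1 were set against their family members as a log2 ratio of CPM + 1 within each library. Scaling of a library leaves this ratio nearly unchanged, but the added 1 pulls it towards 0 where a gene is near 1 CPM. The pairs were Rpl22l1/Rpl22, Rps27l/Rps27, Rpl39l/Rpl39, Rpl3l/Rpl3, Rpl10l/Rpl10 and Rps4l/Rps4x. Over 6 pairs and 10 media comparisons, 0 of 60 exact two-sided permutation tests passed after Benjamini-Hochberg adjustment, with a lowest adjusted p of 0.0733, and 27 had an unadjusted p under 0.05. Groups of this size limit the p-values that can be reached. Rps27l exceeded Rps27 in every group. The log2 ratio was 9.22 ± 0.50 without pyruvate and 7.84 ± 0.43 in standard medium at 42 h (1.38, exact p = 0.0286, adjusted p = 0.0745 for the difference; 2.81 with a pseudocount of 0.1), and 7.71 ± 0.54 without pyruvate and 4.04 ± 0.15 in standard medium at 48 h (3.66, exact p = 0.0357, adjusted p = 0.0794). At 52 h it was 6.16 ± 0.43 without pyruvate and 2.91 ± 0.18 in standard medium (3.25, exact p = 0.0571, adjusted p = 0.098).

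Rpl22l1 was below Rpl22 in every group mean. In standard medium their log2 ratio was -3.79 ± 0.24 in the morula and -0.56 ± 0.05 in the blastocyst. Without lactate it was -2.75 ± 0.12 in morulae against -3.79 ± 0.24 in standard morulae (1.03, exact p = 0.00433, adjusted p = 0.0733). In blastocysts it was -1.72 ± 0.12 without lactate against -0.56 ± 0.05 in standard medium (-1.15, exact p = 0.0286, adjusted p = 0.0745), so removal of lactate went with a higher ratio in morulae and a lower one in blastocysts, with groups that did not overlap at either age. For Rpl39l, a testis paralog of Rpl39, the ratio to Rpl39 was -0.98 ± 0.19 with the MYC inhibitor against 1.04 ± 0.20 in morulae without pyruvate (-2.02, exact p = 0.0159, adjusted p = 0.0733). In blastocysts it was -0.30 ± 0.17 without pyruvate and -1.82 ± 0.45 in standard medium (1.52, exact p = 0.0159, adjusted p = 0.0733). The muscle paralog Rpl3l was listed at 0 in every early 2-cell and every standard blastocyst library, and its highest group mean was 11 CPM, in the very late 2-cell embryo.

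**Figure D5:**
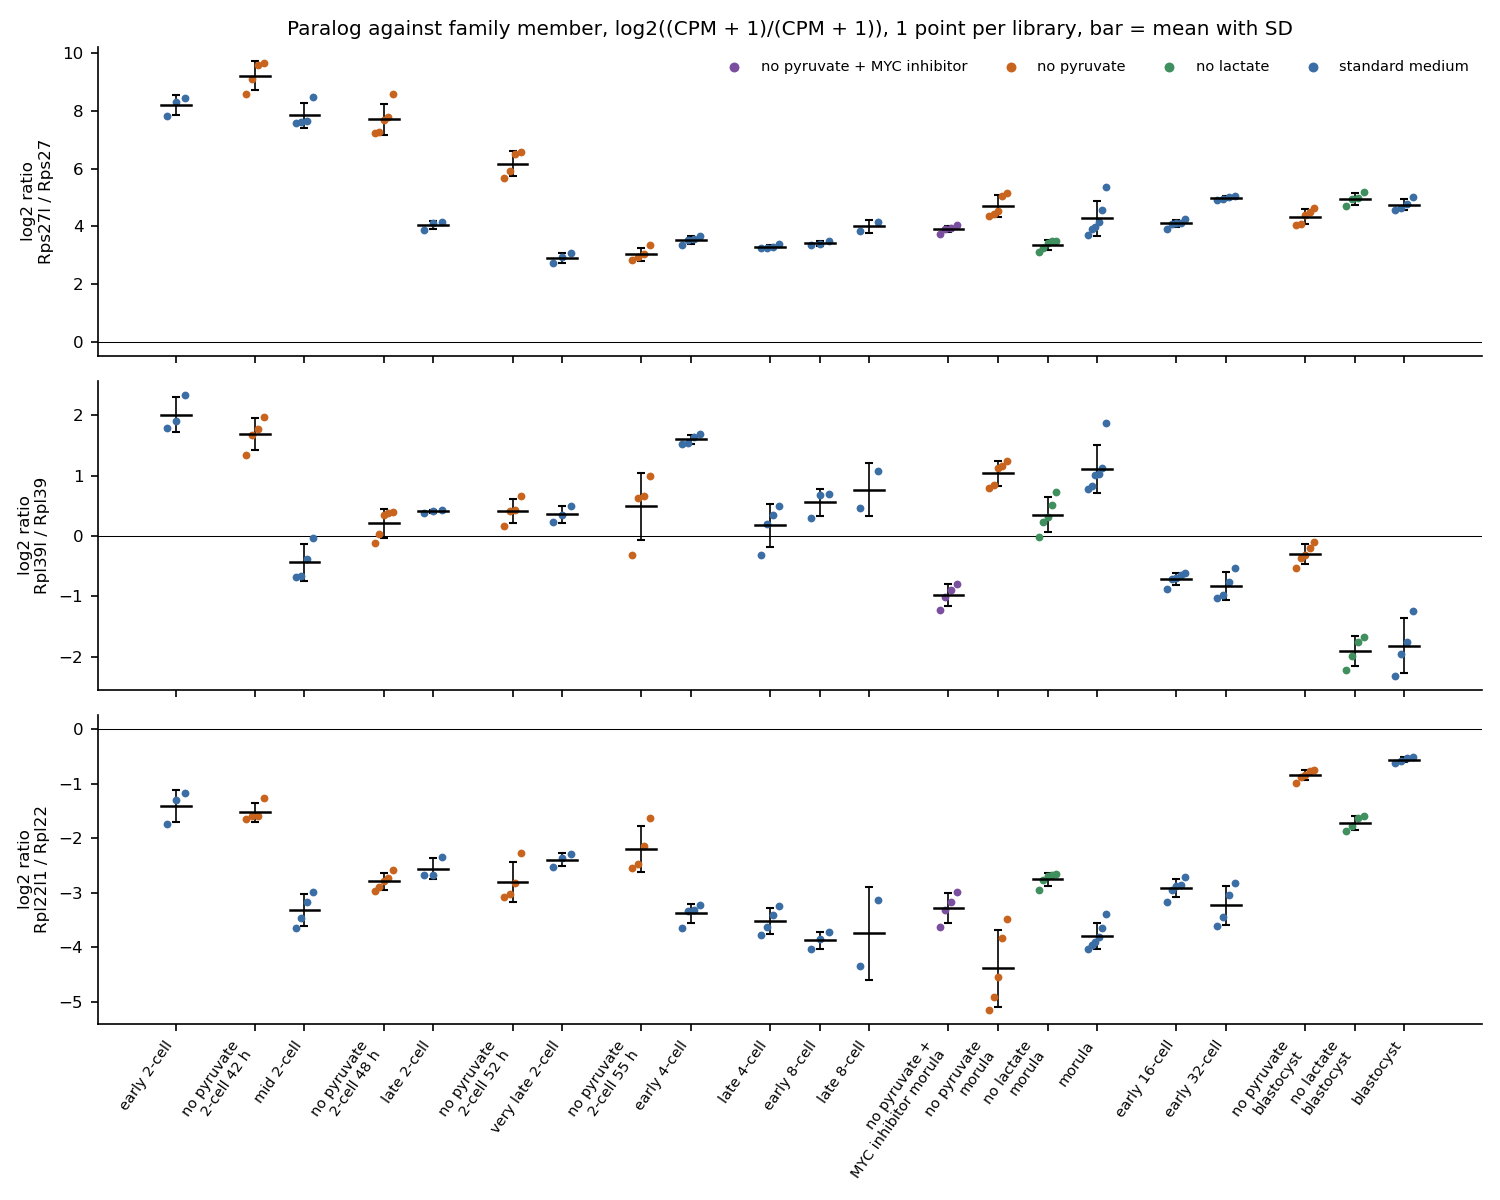
Log2 ratio of paralog to family member, log2((CPM + 1)/(CPM + 1)), for Rps27l/Rps27, Rpl39l/Rpl39 and Rpl22l1/Rpl22 in each library; points are libraries and bars are means, with altered media left of standard medium. The Rps27l ratio lies higher without pyruvate at 48 and 52 h (means of 7.71 and 6.16, against 4.04 and 2.91 in standard medium), and the Rpl22l1 ratio is highest among standard groups in the blastocyst (-0.56).

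Ribosomal genes that the symbols do not cover were read beside the members. Fau encodes a ubiquitin-like fusion of a small-subunit protein, Rack1 a scaffold on the small subunit and Rpl36al a copy of Rpl36a. Between the early and the mid 2-cell embryo, Fau and Rpl36al rose and Rack1 fell (log2 change of -0.78). Fau averaged 31.9 CPM in mid and 8.04 CPM in early 2-cell embryos (1.86 ± 0.17, adjusted p = 2.8e-12), and Rpl36al averaged 53.1 CPM in mid and 3.92 CPM in early ones (3.43 ± 0.25, adjusted p = 1.5e-15). At 42 h without pyruvate, Fau was lower (-1.09 ± 0.19, adjusted p = 1.5e-05), Rpl36al was lower (-2.52 ± 0.29, adjusted p = 6.8e-09) and Rack1 was higher (1.04 ± 0.17, adjusted p = 6.5e-06). At 52 h without pyruvate each of these genes was lower, Rack1 with a log2 change of -2.18 ± 0.19, adjusted p = 7.9e-12.

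Of 44 genes for ribosome assembly and RNA polymerase I, 39 rose and 1 fell between the early and the mid 2-cell embryo (median 1.67; 42.9% higher and 7.71% lower over all genes). Nop16, a nucleolar protein, averaged 77.6 CPM in mid and 1.22 CPM in early 2-cell embryos (5.12 ± 0.18, adjusted p = 2.5e-25). Without pyruvate, 41 were lower at 42 h (median -1.67), 44 at 48 h (-2.09), 43 at 52 h (-1.64) and 22 at 55 h, when 3 were higher. Over all genes 31.2%, 34.3%, 31.3% and 19.5% were lower at these ages, and 37.7% higher at 55 h. Nop16 averaged 3.7 CPM without pyruvate and 77.6 CPM in standard medium at 42 h (-4.07 ± 0.25, adjusted p = 2.8e-15). In the blastocyst against the early 32-cell embryo, 37 fell and 0 rose (29.1% lower over all genes), where the nucleolar protein Nolc1 averaged 28.3 CPM in blastocysts and 208 CPM in early 32-cell embryos (-2.88 ± 0.17, adjusted p = 1.2e-17). In blastocysts without pyruvate 41 were higher and 1 lower, where 80.8% of all genes were higher, and these counts were 17 and 10 under median-ratio scaling. With the MYC inhibitor against morulae without pyruvate, 7 were higher and 19 lower (8.61% and 67.1% over all genes), a direction that turned to 30 higher and 0 lower under median-ratio scaling.

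Of 17 translation factors and related genes with a TOP start, 12 rose and 1 fell between the early and the mid 2-cell embryo (42.9% and 7.71% over all genes). Pabpc1, the poly(A)-binding protein, changed by 3.71 ± 0.26, adjusted p = 4.0e-16 at that step, and by -2.62 ± 0.19, adjusted p = 1.7e-13 without pyruvate at 42 h, where 9 of 17 were lower and 2 higher (31.2% and 5.58% over all genes). At 52 h 14 were lower and 1 higher (31.3% and 31.9%). Of 78 genes for mitochondrial ribosomal proteins, a separate family, 38 rose and 15 fell at the first step (42.9% and 7.71% over all genes), an imbalance that was 25 and 25 under median-ratio scaling. Without pyruvate 27 were lower and 14 higher at 42 h (31.2% and 5.58% over all genes), which turned to 18 lower and 31 higher under median-ratio scaling, whereas at 48 h 51 were lower and 13 higher (34.3% and 22.6%). They held 0.128% of CPM in the early 2-cell embryo, more than the cytosolic ribosomal protein genes there (0.0643%, or 0.03115% for the core members), and 0.63% in the blastocyst. Of p53 target genes 14 of 18 were higher and 0 lower in morulae without pyruvate (32.8% and 6.62% over all genes), and 16 of 17 were higher and 1 lower in blastocysts without pyruvate, where 80.8% of all genes were higher.

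The part of the processed copies in the summed CPM was not constant. They held 15.6% of the CPM of members and copies in the early 2-cell embryo, 30.3% in the early 8-cell embryo and 33.8% in the blastocyst. The share was 12.6% without pyruvate at 42 h against 18% in standard medium, and 38.1% in blastocysts without lactate against 33.8% in standard ones. With the copies added to each member, 85 rose and 0 fell between the early and the mid 2-cell embryo, 79 were lower and 0 higher without pyruvate at 42 h, and 85 were lower and 1 higher at 48 h. In the blastocyst, 54 were lower and 4 higher without pyruvate.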

How the data were processed

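Polyadenylated RNA of 85 embryo libraries was sequenced with Smart-seq2, which pre-amplifies whole cDNA, per the labels' protocols. Alignment was to mm10 with STAR 2.6.1d, per the submitters' processing notes, and how reads were counted or multiple alignments handled is not given in the sources used here. The deposited values are CPM, counts that the authors scaled to the same total in each library, with an offset of 0.0001 that stands for 0. Of 91 columns, 6 matched no sample and were not used, and 26 entries with numeric names (0.046% to 0.194% of a library's CPM) and 1 gene with a missing value were left out. Whole reads could not be recovered, since only 70.2% to 78.8% of values up to 20 reads lay within 0.1 of a whole number, so read totals are inferred (10.2 M to 42.4 M) and no count test was run. For a gene at 1 CPM such totals give about 10 reads or more.

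Values were tested as log2(CPM + 1) with limma 3.58.1 in R 4.3.3 (mean trend, two-sided, Benjamini-Hochberg over all genes of a fit, threshold 0.05), on genes that exceeded 1 CPM in 3 or more of its libraries. Separate fits covered the standard course (20159 genes), 34 to 55 h (20738), 78 h (16031), 114 h (14312) and both later ages (16991). Paralog ratios had exact permutation tests. The scripts, in Python 3.11.15 (scipy 1.17.1, pandas 2.3.3, numpy 2.4.6; figures with matplotlib 3.10.9), were tested on simulated data. Alternatives were the pseudocount, the filter, the samples in the fit, the replicate block, the scaling, gene length, leaving out libraries and, added after seeing the data, processed copies summed with their member. Members and gene lists were chosen with earlier results of these data known. The members named were drawn from 15 set ones (the stalk, Rpsa, Rps3, Rps6, Rpl3, Rpl5, Rpl11 and 3 paralog pairs), the 3 with the most positive and the 3 with the most negative change of a comparison and those called against the majority. The text prints only a part of these in each comparison. Some that were called are not printed, such as Rps6 and Rpl39 between the early and the mid 2-cell embryo. Gene lengths are those of GENCODE vM21 principal transcripts (GRCm38), and promoters come from RefSeq.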

Additional observations from a re-analysis of the deposited data

Results flagged for a closer look

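In groups of 4 to 10 libraries, 7 of 256 tested sets of values held a library far from the others of its group, where chance gives about 1 in 20. These were Rpl22l1 in late 4-cell replicate 1 (8.58 CPM), Rpl22 in replicate 1 without pyruvate at 42 h (4.29 CPM) and Rps3 in replicate 4 without pyruvate at 52 h (53.4 CPM). The others were Rps6 in replicate 3 without pyruvate at 55 h (41.0 CPM), Rpl11 in replicate 1 of the morulae without pyruvate (30.2 CPM), Rpl3 in standard morula replicate 1 (119 CPM) and Rpl39l in standard blastocyst replicate 4 (111 CPM).

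The effect of a medium differed between ages in the limma tests of the difference itself. Removing pyruvate had a more positive effect at 48 h than at 42 h on 8 members and a more negative one on 10, and a more negative effect at 52 h than at 48 h on 4. In blastocysts against morulae, removing pyruvate had a more positive effect on 11 members and a more negative one on 21, and removing lactate had a more positive effect on 36.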

How the results depend on the processing

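Leaving out each library in turn moved 16 counts of members beyond 1.5 times, 8 of them counts of at most 2 that changed by up to 2. In the more frequent direction these were 19 to 32 higher in the very late against the late 2-cell embryo, 0 to 1 in the early 8-cell against the late 4-cell embryo, 0 to 1 in the morula against the late 8-cell embryo and 17 to 37 at 52 against 48 h without pyruvate. The others were 2 to 4 lower for the pyruvate effect at 52 against 48 h, 9 to 46 higher without lactate in blastocysts and 23 to 48 for the lactate effect in blastocysts against morulae, and in the less frequent direction 2 to 5 lower in the early 16-cell embryo, 5 to 11 higher for the pyruvate effect at 48 against 42 h and 8 to 18 higher for that in blastocysts against morulae. Of 113 values of members named in the text, 96 kept their direction and call in all such runs. By scaling, with the cause not tested in any case: under median-ratio scaling 14 members rose in the very late 2-cell embryo, 1 was higher at the early 32-cell stage, 8 were lower in the blastocyst, 11 rose at 52 h without pyruvate, 64 were lower in morulae and 86 in blastocysts without pyruvate, 73 were higher with the inhibitor against standard morulae, 13 were higher without lactate in blastocysts and 65 had a more negative pyruvate effect in blastocysts. Under quantile scaling these were 22 in the blastocyst, 13 at 52 h without pyruvate and 32 for the pyruvate effect. Length correction gave 79 lower in morulae without pyruvate and 40 higher in blastocysts without lactate. Leaving both the members and the mitochondrially encoded genes out of the total also gave 40 higher in blastocysts without lactate. A fit of only the groups compared gave 0 higher in the early 8-cell embryo, 13 at the early 32-cell stage, 19 lower in morulae without pyruvate and 12 higher in blastocysts without lactate, where testing without a filter gave 8. A pseudocount of 0.1 gave 4 lower for the pyruvate effect at 48 against 42 h and 2 at 52 against 48 h, where no filter also gave 2. Without standard morula replicates 1 and 2, 27 were lower without pyruvate. Without mitochondrially encoded genes in the total, the members' share was 0.863% in the late 2-cell embryo, 0.442% without pyruvate at 52 h, 3.61% with the inhibitor, 3.78% at the early 16-cell and 3.90% at the early 32-cell stage. Directions reversed in 12 cases: in mid against early 2-cell embryos Rpl15 (-0.052 median-ratio, -0.037 quantile) and Rpl17 (-0.56 quantile); in blastocysts without pyruvate Rpl7l1 (-0.56 median-ratio) and Rpl39l (-0.66 median-ratio, -0.22 quantile); and with processed copies added Rpl17 (0.32 late against mid 2-cell, -0.66 without pyruvate at 52 h, 0.25 at 55 against 52 h without pyruvate, -0.024 for its effect at 48 against 42 h) and Rps12 (0.25 early 16-cell, 0.36 inhibitor against no pyruvate). Deviations of same-numbered libraries from their group means had correlations between -0.226 and 0.21. The replicate numbers are those of the sample titles and differ in part from the numbers in the column names. This check therefore cannot decide whether samples were paired. With the replicate number as a block, 1 member was called in the morula against the late 8-cell embryo, and no other count of members moved beyond 1.5 times. Low members such as Rps27 in the early 2-cell embryo rest on few reads, and CPM hold no absolute amounts.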
